A study of Sus scrofa with 6 samples.

Results

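Genes of the interferon response, of antigen presentation and of microglia were followed in the developing pig cerebral cortex between embryonic day 60 (E60), before the cortical surface folds, and embryonic day 80 (E80), when primary folds have appeared. The members were the probe sets whose single gene symbol is that of an interferon, interferon receptor, interferon-induced gene, IRF or STAT factor, SLA gene (the swine MHC), peptide loading or immunoproteasome gene, Toll-like receptor, complement gene or one of a set of myeloid genes. This gave 121 of the 23999 probe sets tested, and 78 of the 6765 different gene symbols. Cortical total RNA of 6 embryos was hybridised to the Affymetrix Pig Genome Array, 1 array per embryo. Arrays 1 to 3 hold the E60 embryos and arrays 4 to 6 those of E80. No treatment or genotype is given for the embryos, and the labels do not say which litter each came from, so litter and day cannot be told apart. Values are MAS5 signals, which the array software computes from the probes of a set, and differences are log2 values of E80 minus E60. The words rose and fell are kept for probe sets with an adjusted p under 0.05 in limma, the adjustment being over all 23999 probe sets.

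Interferons are secreted proteins that act through paired membrane receptors, JAK kinases, STAT and IRF factors on a common set of target genes, which restrict viruses and raise antigen presentation. MHC class I molecules, with beta-2-microglobulin (B2M), show peptides from inside the cell, while MHC class II molecules show peptides taken up from outside. In the healthy brain the latter are largely a matter of microglia and of macrophages at its borders. Microglia are the resident macrophages of the brain. They settle there during embryonic life, clear dying cells and produce complement C1q, and they carry Fc receptors and the adaptor TYROBP on their surface.

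Of the 121 member probe sets, 2 rose and 0 fell between E60 and E80, both risen ones being interferon-induced genes, ISG15 and ISG12(A). The 1.65% called among the members lie beside 1.95% among all probe sets tested (0.933% rose and 1.01% fell), so the share called was near the background. At an unadjusted p under 0.05 there were 11 member probe sets, 8 higher and 3 lower at E80, or 9.09% against 18% of all probe sets. No overlap between the days was seen for 19 members, which is 15.7% against 23.6% of all probe sets. Of these 12 were higher and 7 lower at E80, where 9.25% and 14.4% of all probe sets were. The E80 mean of the log2 signals exceeded that of E60 for 75 members, or 62%, against 44.3% of all probe sets. The median log2 difference was 0.14 over the members and -0.05 over all probe sets. The first of these exceeded the second also after the medians of the arrays were made equal (0.26 against 0.06). Many members gave low signals: 36 of the 121 exceeded the median mean signal of the array (61.6), and 32 stayed below 10. Both members that rose were among these 36, and of all probe sets above that median 1.69% rose. Without array 6, 66 members (54.5%) had a higher mean at E80, against 44.8% of all probe sets.

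**Figure D1:**
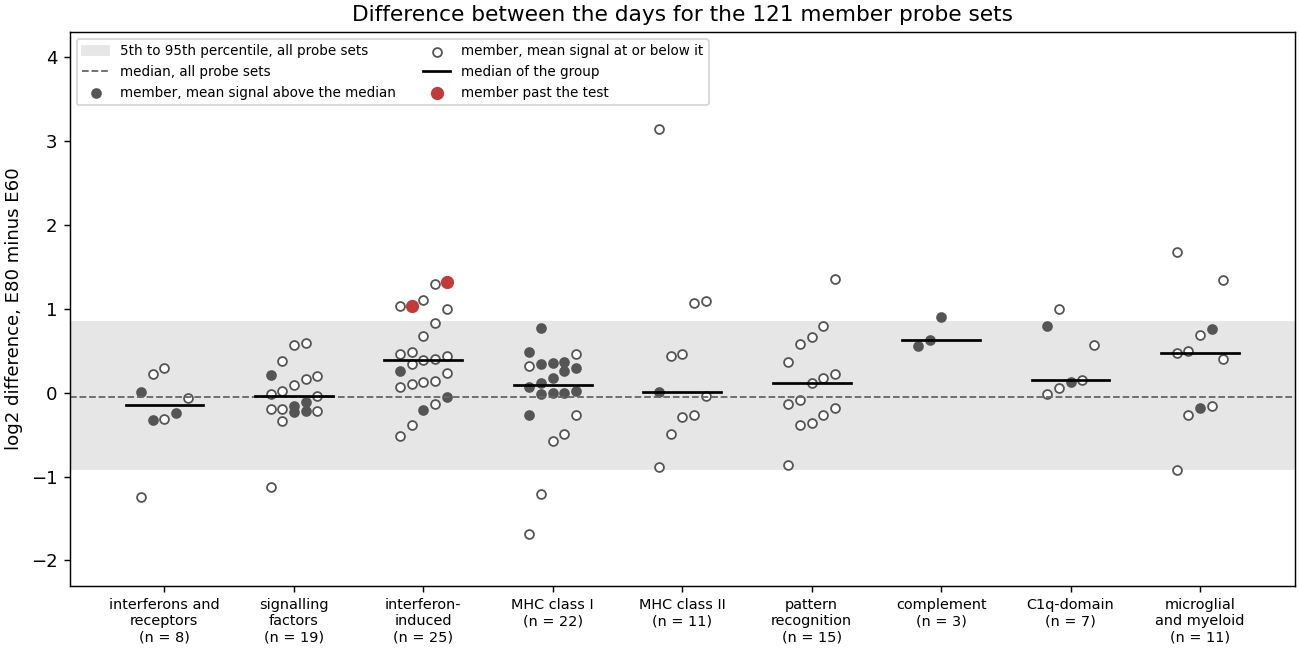
Log2 difference of E80 minus E60 (vertical axis) for each of the 121 member probe sets, grouped by role. Filled grey points exceed the median mean signal of the array (61.6) and open points do not, red points passed the test, bars are group medians and the grey band spans the 5th to 95th percentile of all probe sets (-0.91 to 0.85). The 2 red points are ISG15 and ISG12(A), and most members lie inside the band.

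ISG15 encodes a ubiquitin-like protein that interferon induces and that is coupled to many target proteins. Its signal was 51.0, 35.8 and 44.8 on the 3 arrays of E60 and 91.7, 119 and 117 on the 3 arrays of E80. All arrays of E80 lay above those of E60, and arrays 5 and 6 were alike. The day means were 43.9 ± 7.63 and 109 ± 15.2 (SD, n = 3 each). ISG15 rose 2.50-fold, by 1.32 on the log2 scale with a standard error of 0.20 (limma, adjusted p = 0.0226). The call was lost without array 1 (adjusted p = 0.0757), 2 (0.107), 4 (0.0788), 5 (0.0527) or 6 (0.0623), while the log2 change stayed between 1.18 and 1.44. Of all 23999 probe sets only 1 was called without array 1, 2 or 4, against 467 with all arrays. The loss there is thus not particular to ISG15. Without array 5 or 6 the calls over all probe sets were 367 and 200. The ISG15 protease USP18, which takes the modifier off its targets, had signals of 41.2, 37.3 and 32.7 at E60 and 44.8, 45.0 and 48.1 at E80. The days did not overlap for USP18, and its log2 difference of 0.32 did not pass (adjusted p = 0.443).

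ISG12(A) belongs to the family of small interferon-induced membrane proteins that includes human IFI27. Its signal was 168, 136 and 144 at E60 and 309, 249 and 367 at E80. Again no array of E80 reached down to E60. With day means of 149 ± 16.8 and 308 ± 58.9 (SD, n = 3 each), ISG12(A) rose 2.05-fold, or by 1.04 on the log2 scale with a standard error of 0.16 (limma, adjusted p = 0.0248). This call was lost without array 1 (adjusted p = 0.0773), 2 (0.119), 3 (0.0566), 4 (0.113) or 6 (0.056), with log2 changes of 0.90 to 1.18 over the arrays left out in turn. Without array 1, 2 or 4 nearly all calls over all probe sets were lost, as given for ISG15. For neither gene did array 6 stand apart. Without it the log2 differences were 1.27 for ISG15 and 0.90 for ISG12(A).

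The other 23 probe sets of interferon-induced genes did not pass the test. Of all 25, 20 were higher on average at E80, with a median log2 difference of 0.39. Without array 6 these were 18 of 25 and 0.36. With only the brightest probe set of each gene and all arrays, 11 of 15 were higher and the median was 0.25. MX1, a GTPase that blocks viral nucleoproteins, had signals of 120, 86.4 and 87.5 at E60 and 100.3, 68.4 and 120 at E80. The days overlapped throughout for this classic interferon target (log2 difference -0.05, adjusted p = 0.942). Its paralogue MX2 was dim on both probe sets, and on one of them the signals of 9.26, 12.3 and 7.49 at E80 lay above 3.96, 2.16 and 6.76 at E60 (log2 difference 1.29, standard error 0.53, adjusted p = 0.254). The RNA-binding IFIT genes were measured by 7 probe sets, which did not share a direction. IFIT1 had log2 differences of 0.13 to 1.00 on 3 probe sets, IFIT2 -0.51 to 0.41 on 3, and IFIT3 0.23 on 1. IFI44L likewise ran from -0.38 to 1.11 on 3 probe sets, with -0.13 and -0.38 on the brighter ones. The upper values of IFIT1 and IFI44L came from their dimmest probe sets, at mean signals of 6.40 and 4.04. The guanylate-binding protein GBP1 was higher on average at E80 on its 3 probe sets (0.35 to 0.83, the latter at a mean signal of 8.93). GBP2 had a log2 difference of 0.25. OAS1, the 2'-5' oligoadenylate synthetase, had 0.46 (adjusted p = 0.733), IFI35 1.03 (adjusted p = 0.404) and ISG20 0.67 (adjusted p = 0.657). IFI30 (GILT), a lysosomal reductase of antigen-presenting cells, had 37.1, 34.4 and 47.0 at E60 and 42.7, 56.2 and 62.4 at E80 on its brighter probe set, with overlap (0.44, adjusted p = 0.362). ISG20L2, which the name rule includes but which is known from ribosome maturation, had signals of 129, 142 and 125 at E60 and 115, 123 and 104 at E80. The latter lay below the former on all arrays, with a log2 difference of -0.21 (adjusted p = 0.438).

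Interferons themselves gave low signals, and none of the 8 probe sets for interferons and their receptors passed. IFNB1, the type I interferon made first on infection, had signals of 0.536 to 1.02 at E60 and 0.547 to 0.804 at E80. IFNG, the type II interferon of lymphocytes, had 11.5, 13.7 and 13.3 at E60 and 15.6, 14.7 and 16.8 at E80. These were apart by little, with a log2 difference of 0.29 (adjusted p = 0.663). IFNA1 had a log2 difference of 0.23 and IFN-DELTA-1, a type I interferon known from the pig conceptus, one of -1.25 (standard error 0.68, adjusted p = 0.387), to which array 6 contributed most, at 2.27 beside 14.5 (array 4) and 12.98 (array 5).

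The receptor subunits were brighter. IFNAR1, a chain of the type I interferon receptor, had signals of 784, 825 and 696 at E60 and 644.7, 627.5 and 569.9 at E80. All arrays of E80 were lower, with means of 768 ± 65.6 and 614 ± 39.2 (SD, n = 3 each) and a log2 difference of -0.32 (standard error 0.10) that did not pass (adjusted p = 0.137). For its partner chain IFNAR2 the 2 probe sets differed by -0.31 and 0.0045 on the log2 scale, with adjusted p of 0.489 and 0.992. IFNGR1, of the type II receptor, differed by -0.24 (adjusted p = 0.494).

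None of the 19 probe sets for STAT and IRF factors passed, with a median log2 difference of -0.04 and a range of -1.13 to 0.60. STAT3, which carries cytokine signals and takes part in astrocyte formation, had signals of 172, 186 and 180 at E60 and 217, 180 and 229 at E80 (log2 difference 0.21, adjusted p = 0.418). STAT2, a factor of type I interferon signalling, had a log2 difference of -0.22 (adjusted p = 0.628). STAT5B had -0.23 and -0.12 on its probe sets, and STAT6, the factor of interleukin 4, -1.13 at low signals (9.68 to 14.8 at E60 and 2.70 to 7.72 at E80, adjusted p = 0.293). The days did not overlap for STAT6, for STAT5B on 1 probe set and for IRF1, which had 36.2, 33.4 and 30.2 at E60 and 22.8, 26.3 and 30.0 at E80. These 3 of the 19, all lower at E80, are 15.8%. Of all probe sets 14.4% were lower without overlap, and 23.6% were without overlap in either direction. IRF9, which binds STAT2 in type I interferon signalling, had a log2 difference of 0.022, IRF3 one of -0.019, and IRF2 -0.22 to 0.20 on 3 probe sets. IRF7, which drives interferon genes, was dim and highest on array 6 on both probe sets (-0.19 and 0.38). STAT4 and STAT5A ran from -0.19 to 0.57 over 5 probe sets.

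Other genes of the interferon pathway, taken from a list of 50 genes, were read by 31 probe sets of 22 genes, and 0 of these rose or fell. At an unadjusted p under 0.05 there were 3, or 9.68% against 18% of all probe sets, and each was lower at E80. The receptor kinase TYK2 had signals of 343, 344 and 337 at E60 and 288, 270.1 and 266 at E80 on its brightest probe set (log2 difference -0.31, adjusted p = 0.117). Its other probe sets had log2 differences of -0.46, -0.032 and 0.29, with overlap of the days. The nuclear body protein PML had a log2 difference of -1.07 (adjusted p = 0.168) on 1 probe set and -0.24 on the other, and the signalling adaptor MAVS one of -0.79 (adjusted p = 0.237). Of the classic interferon targets outside the members, RSAD2 had a log2 difference of 0.19, the RNA-sensing kinase EIF2AK2 0.14, the RNA helicase DDX58 0.21 and 0.08 on 2 probe sets, and XAF1 0.32, with adjusted p of 0.659 to 0.938. The median over the 31 probe sets was 0.06, against -0.05 over all probe sets tested.

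MHC class I, peptide loading and immunoproteasome genes held 22 probe sets, of which none passed (median log2 difference 0.09, without array 6 0.07). B2M, the invariant light chain of class I, is named for 9 probe sets, whose mean signals ran from 144 to 2970 and which did not go the same way. On 1 of them the signals were 497, 456 and 454 at E60 and 419, 520.0 and 1000.5 at E80, so that array 6 was 2.13 times the mean of the others. On another, array 6 had 239 against 110.0 to 146 on arrays 1 to 5. On 2 of the 3 brightest ones array 6 was instead the lowest array, with 1889 against 2381 to 3160 on arrays 1 to 5 for 1 of them. On 1 probe set the days did not overlap, with 285, 320 and 346 at E60 and 423, 414 and 376 at E80 (log2 difference 0.35, standard error 0.11, adjusted p = 0.136). Which of the 9 read B2M alone was not tested, since no probe or genome sequence was used here.

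**Figure D2:**
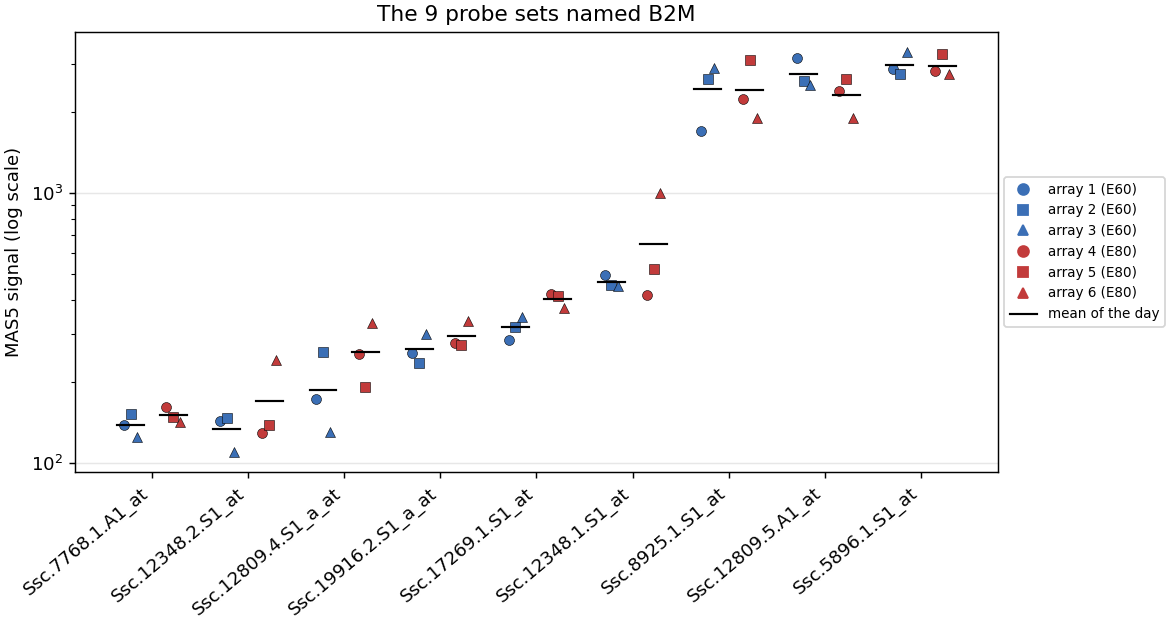
MAS5 signal (log scale) on each array for the 9 probe sets named B2M, ordered by mean signal. Points are single arrays (3 of E60 in blue, 3 of E80 in red) and bars are means of the day. Array 6, the red triangle, is the highest array for 4 probe sets and the lowest for 2.

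The class I heavy chains of the pig are near-identical, so signals of single SLA genes are uncertain. Over the whole name rule, 11 further probe sets that carry several symbols, of which 1 or more fits the rule, were left out. SLA-2 had signals of 165, 97.7 and 149 at E60 and 100.2, 249 and 472 at E80, on a probe set whose code marks probes shared with other sequences. Array 4 was at the low end of E60 and array 6 well above all others (log2 difference 0.77, standard error 0.49, adjusted p = 0.462). SLA-6 had 60.7, 35.0 and 58.8 at E60 and 18.1, 14.6 and 37.7 at E80, with the difference in the other direction (-1.21, standard error 0.40, adjusted p = 0.160). SLA-3 had a log2 difference of 0.32, SLA-8 0.067 and 0.016 on 2 probe sets, and the dim SLA-7 -0.50.

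Among the genes that load peptides, tapasin (TAPBP) had signals of 136, 128 and 144 at E60 and 170.1, 153 and 199 at E80. The days did not overlap, and the log2 difference of 0.35 (standard error 0.13) did not pass (adjusted p = 0.222). TAP1, a chain of the peptide transporter, had signals of 8.48, 11.5 and 19.4 at E60 and 4.22, 3.74 and 3.58 at E80 on 1 dim probe set. This is one of 2 member probe sets past a 3-fold rule, which asks for at least 3-fold with all arrays of one day above those of the other and takes only its threshold from the study. Of all probe sets 1.21% met it (0.629% higher and 0.583% lower at E80). For TAP1 the log2 difference of -1.69 (standard error 0.45) did not pass (adjusted p = 0.102). The brightest TAP1 probe set had 77.8, 66.02 and 66.4 at E60 and 63.9, 64.1 and 82.0 at E80, a log2 difference of -0.0076. The immunoproteasome subunits PSMB8 and PSMB10 differed by 0.46 and 0.26 on the log2 scale, with adjusted p of 0.643 and 0.761. Their standing counterparts PSMB5, PSMB6 and PSMB7, which are no members, had 0.088, -0.056 and 0.055.

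MHC class II gave 11 probe sets, of which none passed and 1 exceeded the median mean signal of the array. That one, for the peptide exchange factor SLA-DMA, had signals of 280, 350.3 and 315 at E60 and 305, 310 and 329 at E80, a log2 difference of 0.0039. The invariant chain CD74 had 3.63, 9.12 and 17.5 at E60 and 9.53, 16.4 and 34.3 at E80. Its days overlapped, and array 6 was the highest (log2 difference 1.07, standard error 0.67, adjusted p = 0.450). The chains SLA-DRA and SLA-DQA1 had log2 differences of 0.44 and -0.034, SLA-DQB1 1.09 at signals of 2.38 to 12.2 (adjusted p = 0.361), SLA-DMB 0.46 and SLA-DOA -0.49. SLA-DRB1 had -0.89, -0.29 and 3.15 on 3 probe sets, the last at signals of 0.181 to 1.201 at E60 and 1.05 to 6.20 at E80 (standard error 1.03, adjusted p = 0.159). A list of 31 further genes of antigen presentation was read by 33 probe sets of 20 genes, of which 0 rose or fell. Of the 33, 4 had an unadjusted p under 0.05, or 12.1% against 18% of all probe sets. Cathepsin B (CTSB), a lysosomal protease, had signals of 1235, 1209 and 1230 at E60 and 1464, 1492 and 1433 at E80. The arrays of E80 lay above those of E60 by more than their spread, and the log2 difference of 0.26 (standard error 0.07) had an adjusted p of 0.116. The co-stimulatory receptor CD40 had log2 differences of 1.21 (adjusted p = 0.198), 0.18 and -0.47 on its probe sets. Cathepsin D (CTSD), another lysosomal protease, had signals of 285, 305 and 348 at E60 and 441, 337 and 713 at E80, with overlap and array 6 at 2.08 times the mean of the others (log2 difference 0.60, adjusted p = 0.242). Of these 4 the one with a lower mean at E80 was a probe set of PDIA3, a chaperone of the peptide loading complex (-0.42, adjusted p = 0.276), whose other probe sets had -0.16 and 0.059.

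The 15 probe sets for pattern recognition had mean signals of 1.98 to 35.9, and none passed or kept the days apart. TLR4, the receptor of bacterial lipopolysaccharide, had log2 differences of -0.27 to 0.37 on 5 probe sets, and its co-receptor CD14 -0.36 and 0.58 on 2. TLR1 had -0.86 and -0.085, TLR2 0.80, TLR6 -0.39, TLR8 0.17, TLR9 1.36 (standard error 0.81, adjusted p = 0.429), and the adaptor MYD88 0.12 and 0.66.

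Among microglial and myeloid genes no probe set passed. TYROBP and CD38 were the 2 of the 11 with no overlap between the days, or 18.2% against 23.6% of all probe sets. TYROBP (DAP12), the adaptor through which TREM receptors signal in microglia, had signals of 20.1, 9.78 and 17.4 at E60 and 23.99, 38.1 and 60.7 at E80. All 3 arrays of E80 were higher, array 6 most and array 4 by little. The means were 15.8 ± 5.35 and 40.9 ± 18.5 (SD, n = 3 each), with a log2 difference of 1.34 (standard error 0.42, adjusted p = 0.146 in limma), or 2.53-fold. Without array 6 the log2 difference was 1.01 (adjusted p = 0.307).

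CD38, the ADP-ribosyl cyclase that consumes NAD and makes calcium-mobilising messengers in immune cells and astrocytes, had signals of 21.16, 7.65 and 10.1 at E60 and 21.17, 42.9 and 58.5 at E80. The days were kept apart only by the difference of arrays 1 and 4 in the second decimal, while arrays 5 and 6 were far above. The log2 difference was 1.68 (standard error 0.50, adjusted p = 0.129), or 3.20-fold, and CD38 is the other member past the 3-fold rule. The study chose a transcript of this enzyme on the same arrays, so this is no independent evidence. Without array 6 the log2 difference was 1.36 (adjusted p = 0.274). Of the astrocyte genes in a list of 10, measured by 14 probe sets of 9 genes, 5 probe sets rose and 0 fell (2 of GFAP and 1 each of ALDOC, APOE and CLU). That is 35.7% called, against 1.95% of all probe sets (0.933% rose). GFAP and APOE are also among the transcripts that the study chose on the same arrays. The summed signal of the list (brightest probe set per gene) was 4470 to 5070 at E60 and 6920, 7230 and 10100 on arrays 4, 5 and 6. The part of astrocytes in the values of CD38 was not tested. In bulk tissue, a change in the number of cells of a type and a change in RNA per cell cannot be told apart.

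AIF1 and the 3 complement genes had their highest signal on array 6. AIF1 (IBA1), the cytoplasmic marker of microglia, had signals of 64.6, 40.7 and 41.3 at E60 and 51.3, 57.9 and 176 at E80. Arrays 4 and 5 lay inside the range of E60, and array 6 was 3.45 times the mean of the other 5. C1QA and C1QC, chains of complement C1q, likewise had arrays 4 and 5 inside the range of E60 and array 6 above it. C1QA had 54.8, 38.1 and 49.2 at E60 and 50.0, 53.7 and 140 at E80, and C1QC had 94.1, 65.9 and 78.7 at E60 and 88.7, 77.7 and 227 at E80. C3, the central complement protein, had 45.4, 34.4 and 53.2 at E60 and 59.5, 57.3 and 161 at E80. For C3 arrays 4 and 5 were also above E60, and its log2 difference was 0.91 (standard error 0.40, adjusted p = 0.279), with 0.42 left without array 6. For AIF1, C1QA and C1QC the log2 differences were 0.76, 0.62 and 0.56 (adjusted p = 0.427, 0.443 and 0.486), and 0.19, 0.15 and 0.077 without array 6.

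The name rule also takes in 5 C1QTNF genes, secreted proteins that share only a domain with C1q, and none of their 7 probe sets passed. C1QTNF3 had signals of 6.78, 8.18 and 5.74 at E60 and 10.6, 27.5 and 8.61 at E80, with no overlap (log2 difference 0.996, adjusted p = 0.349). C1QTNF6 was highest on array 5 on its 3 probe sets (0.13 to 0.57), and C1QTNF2 and C1QTNF12 had log2 differences of 0.058 and -0.011. C1QTNF5 had 51.1, 60.2 and 55.5 at E60 and 53.3, 55.5 and 302 at E80. Array 6 alone stood apart here, and the log2 difference of 0.80 (adjusted p = 0.537) turned to -0.029 without it.

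FCER1G, the signalling chain of Fc receptors, had signals of 37.6, 34.3 and 40.6 at E60 and 32.6, 53.6 and 84.1 at E80. Array 4 lay below E60, array 5 above it and array 6 higher still (log2 difference 0.50, adjusted p = 0.483). IRF8, a transcription factor that microglia need, had 37.5, 34.6 and 27.7 at E60 and 30.4, 43.8 and 92.8 at E80, again with array 6 on top (log2 difference 0.60, adjusted p = 0.474). FCGR3A had 24.2 to 30.5 at E60 and 21.7, 36.2 and 57.2 at E80 on its brighter probe set. In contrast, FCGRT, the neonatal Fc receptor, which the name rule includes and which endothelium also expresses, had 564, 518 and 652 at E60 and 440.3, 515 and 577 at E80, with overlap of the days (log2 difference -0.18, adjusted p = 0.516). PTPRC (CD45), the common leukocyte surface phosphatase, was dim, with 4.47 to 13.4 at E60 and 1.62 to 7.97 at E80. FCGR1A, FCGR2B and TREM1 were dim too, with log2 differences of 0.48, -0.27 and 0.69. No probe set is named CSF1R, CX3CR1, CD68 or TREM2 in the annotation used here, so several defining genes of microglia were not analysed.

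**Figure D3:**
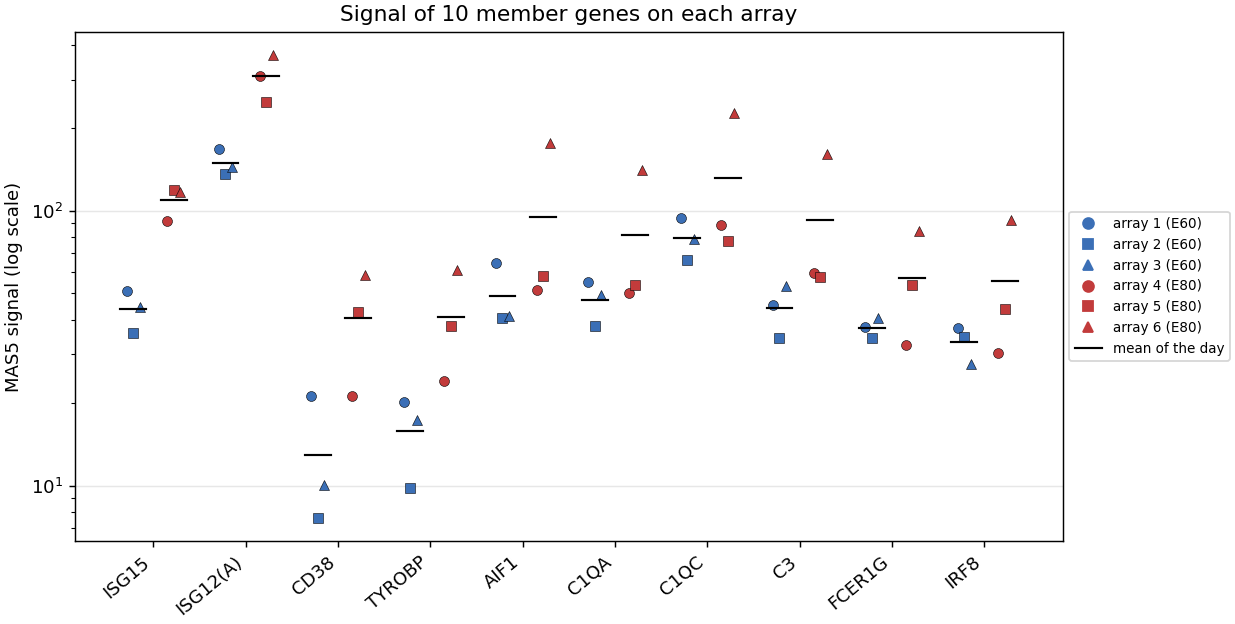
MAS5 signal (log scale) of 10 member genes on each array. Points are single arrays (3 of E60 in blue, 3 of E80 in red) and bars are means of the day. For ISG15 and ISG12(A) the 3 arrays of E80 lie together above E60, while for AIF1, C1QA, C1QC and IRF8 array 6 (red triangle) lies above the other 5.

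Array 6 was the highest of the 6 arrays for 54 of the 121 member probe sets, or 44.6%, against 15.8% of all probe sets tested, while arrays 1 to 5 were the highest for 19, 6, 16, 6 and 20 members, respectively. By role, array 6 was the highest for 3 of 3 complement probe sets, 7 of 11 microglial and myeloid ones, 8 of 15 for pattern recognition, 5 of 11 for class II, 10 of 22 for class I and peptide loading, 10 of 25 interferon-induced ones and 8 of 19 for STAT and IRF factors, but for 2 of 8 for interferons and their receptors and 1 of 7 of the C1QTNF genes. It was at least 2 times the mean of the other arrays for 28 members, or 23.1%, against 3.66% of all probe sets. The mean signals of these members ran from 1.98 (MYD88) to 558 (B2M), so some lay near the floor, and the 2 shares were not matched for signal. In those 28, picked for a high array 6, the median log2 difference between the days was 0.53, and 0.08 without that array. A fall of this kind follows from how the 28 were picked. Their mean log2 signal on arrays 4 and 5 was above E60 for 18 of the 28. These counts were made after array 6 had been seen to be high, and describe that array.

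**Figure D4:**
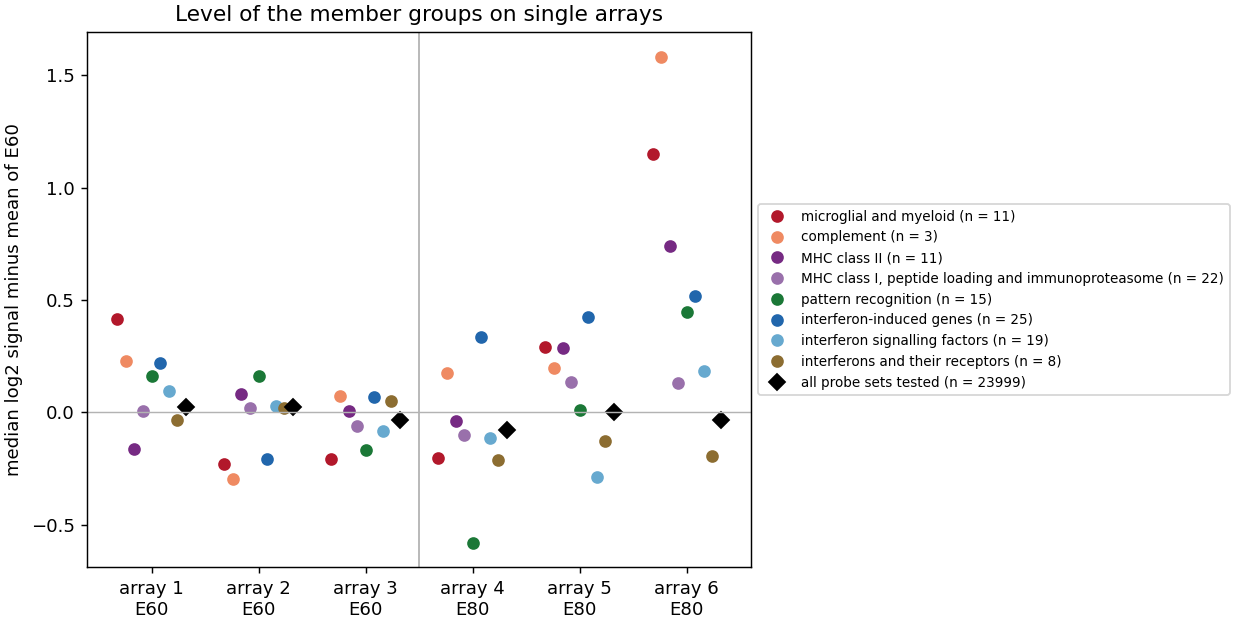
Median log2 signal minus the mean of E60 (vertical axis) on each array for 8 groups of members and for all probe sets tested (black diamonds). Each point is the median over the probe sets of 1 group on 1 array. On array 6 complement (1.58) and microglial and myeloid genes (1.15) lie above the other groups, while on array 4 they lie at 0.17 and -0.21.

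The median log2 signal of the 11 microglial and myeloid probe sets, relative to the mean of E60, was 0.42, -0.23 and -0.21 on arrays 1, 2 and 3 and -0.21, 0.29 and 1.15 on arrays 4, 5 and 6. That of the 11 class II probe sets was -0.041, 0.28 and 0.74 on arrays 4, 5 and 6, and that of the 25 interferon-induced ones 0.33, 0.43 and 0.52. For the myeloid genes array 5 thus lay inside the spread of the E60 arrays and array 6 above it. For the interferon-induced genes, whose medians on arrays 1, 2 and 3 were 0.22, -0.21 and 0.067, the medians of the 3 arrays of E80 were all higher, while 5 of the 25 probe sets had a lower mean at E80. Several of these probe sets share a gene. With only the brightest probe set of each of the 15 genes, the medians on arrays 4, 5 and 6 were 0.12, 0.52 and 0.31. These medians were not tested. Over all probe sets the medians on arrays 4, 5 and 6 were -0.080, -0.0008 and -0.035.

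Further genes of microglia and macrophages, from a list of 49 genes, were read by 39 probe sets of 22 genes, of which 1 rose and 0 fell (2.56%, against 1.95% of all probe sets). ALOX5AP, the protein that presents arachidonic acid to 5-lipoxygenase in myeloid cells, had signals of 295, 321 and 347 at E60 and 487, 457 and 456 at E80. It rose by 0.54 on the log2 scale with a standard error of 0.097 (limma, adjusted p = 0.0378). Array 6 did not stand out for it, and the call was lost without array 1, 2, 4, 5 or 6. Without array 1, 2 or 4 only 1 of all probe sets was called. The myeloid integrin chain ITGAM had log2 differences of 1.58 (adjusted p = 0.183) and 0.71 on dim probe sets, and IL34, a ligand of the receptor CSF1R made by neurons, had signals of 62.6, 64.7 and 75.6 at E60 and 79.8, 109 and 93.5 at E80 (0.47, adjusted p = 0.203). P2RY12, a purine receptor of resting microglia, had 32.3, 16.1 and 19.4 at E60 and 44.0, 23.4 and 133 at E80. The myeloid factor SPI1 (PU.1) differed little, with 60.2, 50.2 and 72.7 at E60 and 64.8, 69.7 and 78.3 at E80. The summed signal of the list (brightest probe set per gene) was 1170 to 1240 at E60 and 1400, 1560 and 1880 on arrays 4, 5 and 6, and array 6 was the highest for 18 of its 39 probe sets. Bright genes such as ALOX5AP weigh most in this sum. The median log2 signal of the 39 probe sets, relative to the mean of E60, was 0.016, 0.31 and 0.52 on arrays 4, 5 and 6. On arrays 1, 2 and 3 it was 0.19, -0.059 and -0.11, so array 4 lay inside the spread of E60.

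Genes of other cells that cortical tissue can hold were set beside these values. Of the choroid plexus list, 6 of 12 genes were measured, and their summed signal was 94.6 to 178 at E60, 118 and 202 on arrays 4 and 5, and 5480 on array 6, where transthyretin (TTR) alone had 4475. Of the lymphocyte list 10 of 18 genes were measured, with sums of 199 to 258 at E60 and 304 to 309 at E80. None of its 15 probe sets passed, the smallest adjusted p being 0.0723 for CD8B. An unadjusted p under 0.05 was found for 4, all higher at E80, or 26.7% against 18% of all probe sets. CD247, the zeta chain of the T cell receptor, had signals of 90.6, 92.9 and 124 at E60 and 157, 146 and 174 at E80 on its brightest probe set, with no overlap (log2 difference 0.64, adjusted p = 0.0854). CD8A had 39.2 to 66.2 at E60 and 47.5 to 69.7 at E80, whereas CD79B, CD3D and CD4 had signals of at most 14.4, 11.0 and 11.5. The granulocyte sums were 47.4 to 69.0 and 42.9 to 49.4, those of red blood cells 1140 to 1250 and 1040 to 1270, and those of endothelium 1580 to 1760 and 1300 to 1520. Fibroblast and meningeal genes (7 of 12 measured) summed to 1400 to 1800 at E60 and to 799, 1490 and 963 on arrays 4, 5 and 6. On array 6, then, the sums of choroid plexus, microglial and astrocyte genes were the highest of the 6 arrays, and that of lymphocyte genes by little. The part of choroid plexus or other non-cortical tissue in the high myeloid and complement signals of array 6 was not tested. Both neuronal genes measured, STMN2 and MAP2, were bright on each array (990 to 4262), and their summed signal was 6250 to 6670 at E60 and 7100 to 7600 at E80.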

How the data were processed

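Cortex RNA of 6 embryos (3 at E60, 3 at E80) was read on 1 array each. The deposited values are linear MAS5 intensity signals, which the authors' software derived from the probes of a set and scaled by array, so that the mean without the outer 2% at each end is 150 on all arrays. The study gives the number of detected probe sets per array. Detection calls of single probe sets were not used here, and for the software version the sources used here state nothing. Groups come from the labelled embryonic day. The 124 control probe sets were left out. Names come from the platform annotation (10069 probe sets with 1 symbol, 198 with several, 13732 with none), and all 121 member names are those of the same gene IDs in RefSeq.

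Log2 signals without a pseudocount were compared with limma 3.58.1 in R 4.3.3 (lmFit, eBayes with intensity trend, Benjamini-Hochberg over 23999 probe sets, threshold 0.05), after a trial on simulated data. A 3-fold rule modelled on the study's threshold asked for at least 3-fold between mean log2 signals and no overlap of the days. How the study computed its folds and what it took as a change in all 3 arrays are not stated in the sources used here, so the 291 probe sets past this rule are not its selection. Alternatives were median centring, quantile normalization, a constant of 32 added, keeping the brightest 66% of probe sets, no trend, robust variance, array weights, each array left out, 2-fold, and folds of arithmetic means. Counts of the array with the highest signal were added after seeing the data. The members and gene lists were chosen with earlier results of these data known. The rule for names was ISG15, TYROBP, CD38, members past the test or, above the median signal, past the 3-fold rule, up to 4 brightest genes and 3 smallest p of each role, and genes of the lists past the test or with the 3 smallest p. For lists of other cell types not all of these are printed. Others, such as IRF8, USP18, P2RY12 and the further interferon-induced genes, were named after their values were seen. No coordinates or sequences are given, since no pig genome was used. The planned search for promoter motifs was not run. Arrays have no counting depth, and 3 per day limit the precision.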

Additional observations from a re-analysis of the deposited data

How the results depend on the processing

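The 2 member calls, ISG15 and ISG12(A), were also 2 risen members with quantile normalization, median centring, 32 added, the brightest 66% of probe sets, robust variance and array weights. Without the intensity trend there were 0, as for all probe sets (12 members at an unadjusted p under 0.05), and 0 to 1 with each array left out in turn; calls over all probe sets then ran from 1 to 367. No member fell under any of these settings. Members past the 3-fold rule numbered 2, but 1 after median centring, 0 with 32 added, 0 among the brightest 66% of probe sets (57 of the 121 members), 8 at 2-fold, and 2 to 5 with each array left out. The 1 risen gene of the pathway lists, ALOX5AP, was lost without the trend (0), and 0 to 1 were called with each array left out. Of 337 values of 27 named member probe sets, 324 kept direction and side of the threshold. All but ISG15 and ISG12(A) had not passed to begin with. For them the count only says that the direction held and that they stayed uncalled. ISG15 and ISG12(A) each kept the call in 7 of 13 settings and missed it in 6. The 1 value that reversed was of C1QTNF5, whose protein only shares a domain with C1q. Its log2 difference was 0.80, and -0.029 without array 6, and ran from -0.029 to 1.22 with each array left out. Median centring moved the median difference over all probe sets from -0.05 to 0.06 and the calls over all probe sets from 224 risen and 243 fallen to 311 and 108. Low signals, with 32 members under 10 on average, limit what can be said of most Toll-like receptors and class II genes. No paired analysis was possible because the labels give no number that the days share.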
